A study of Mus musculus with 4 samples.

Results

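The genes described here are 10 genes whose products switch off mitogen-activated protein kinase (MAPK) signalling, namely the dual-specificity phosphatases Dusp1, Dusp2, Dusp4, Dusp5, Dusp6 and Dusp10, the Sprouty genes Spry1 and Spry2 and the Spred genes Spred1 and Spred2. They were picked by symbol and matched to their mouse Ensembl identifiers, and each of the 10 was found once among the 37140 genes counted in every library. Hematopoietic stem cells (HSCs) were sorted from bone marrow of C57Bl6 mice, and RNA was sequenced from HSCs (Lin- cKit+ Sca1+ Cd48- CD150+) and from HSCs that were CD41low CD9low, each as Gfi1b WT and Gfi1b KO. There was 1 library per genotype and population, with 4 libraries in all. Gfi1b encodes a transcriptional repressor of HSCs and megakaryocytes. The genotype label and the methods name Gfi1b, whereas the sample titles name Gfi1, a related gene, and the counts below do not settle which allele was deleted. The study itself reports that the floxed Gfi1b exons were not expressed in HSCs and megakaryocytes of its KO mice.

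According to the methods of the study, KO mice were Rosa-Cre Gfi1b fl/fl and WT mice were Rosa-Cre Gfi1b wt/fl, all were given tamoxifen before the sort, and marrow of several mice of a genotype was pooled before sorting. The WT libraries would then come from mice with 1 deleted allele, whereas the text deposited with the data describes controls without Cre. Rosa-Cre is active in all tissues, so that the deletion was not limited to HSCs. For the HSC libraries the methods list neither CD41 nor CD9 among the sorting markers. The results of the study, however, describe the sequenced HSCs that were not CD41low/CD9low as CD41+/CD9+. If so, the HSC libraries would hold cells positive for both markers rather than HSCs sorted without regard to them. The age of the mice is not given in the sources used here, and both populations of a genotype may come from the same pool.

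As background, growth factor and cytokine receptors activate the kinases ERK, JNK and p38 through relays of upstream kinases, and the ERK relay is fed by the small GTPase Ras. Active ERK induces transcription of its own inhibitors. The Dusp proteins remove the activating phosphates from the kinases, Sprouty proteins act between the receptor and Raf, and Spred proteins bring the Ras inactivator neurofibromin to the membrane. In HSCs this circuit lies downstream of Kit, the receptor for stem cell factor, among others.

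The HSC libraries were deeper (50781007 counts on genes for WT, 41690708 for KO) than those of the CD41low/CD9low pair (12732079 for WT, 19123185 for KO). Levels are given as CPM, counts scaled to equal library totals, and 3 counts correspond to between 0.0591 CPM in the deepest and 0.236 CPM in the shallowest library. For every 100 counts on genes, between 60.1 and 105.3 reads fell on no annotated feature, with KO HSCs highest. Gfi1b itself, counted over the whole gene, rose from 182 to 1197 CPM between WT and KO in HSCs and from 48.0 to 509 CPM in the CD41low/CD9low pair. Whole-gene counts do not show the loss of the floxed exons and therefore do not check the genotype labels. All 10 HSC markers fixed for the check were detected in every library. The megakaryocyte gene Itga2b, which encodes CD41, was higher in HSCs (547 CPM in WT, 691 in KO) than in the CD41low/CD9low pair (136 and 205 CPM).

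Promoter sequence was available from RefSeq (GRCm38.p6, windows around the annotated transcription start) for 9 of the 10 genes, and Dusp4 had no entry. The stretches of Dusp1 and Dusp5 are shown because Dusp1 had the highest level in the HSC libraries and Dusp5 the lowest KO/WT ratio in HSCs, and because each held a motif that is rare among promoters. Both are given 5′ to 3′ on the strand of the gene, with the motif matches in capitals. Dusp1 is shown from 210 to 111 bases before its start (chr17:26508583-26508682, minus strand) and Dusp5 from 120 to 21 bases before its start (chr19:53529025-53529124, plus strand).
Dusp1: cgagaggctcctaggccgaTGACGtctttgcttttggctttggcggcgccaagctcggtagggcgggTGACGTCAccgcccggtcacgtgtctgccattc
Dusp5: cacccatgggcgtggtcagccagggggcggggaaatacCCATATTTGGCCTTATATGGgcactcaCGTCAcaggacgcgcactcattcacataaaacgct
In Dusp1 the capitals mark a full cAMP response element (CRE, TGACGTCA) and a CRE half-site (TGACG) upstream of it. In Dusp5 they mark 2 adjacent CArG boxes, the motif bound by serum response factor, followed by a CRE half-site on the opposite strand.

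Motifs were searched on both strands of windows from 250 bases before to 50 bases after the start. A full CRE was present in 1 of the 9 windows (Dusp1) and in 1.79% of 32851 windows of all genes. A CArG box was present in 1 of the 9 (Dusp5) and in 1.63% of all windows, and only 6 of the 32851 windows held at least 2 of them. CRE half-sites, which include those inside a full CRE, were found in Dusp1, Dusp2, Dusp5 and Spred2 and in 20.8% of all windows. The core AATC recognised by GFI proteins, the family of Gfi1b, occurred in 7 of the 9 windows and in 73.1% of all windows. The AP-1 motif TGANTCA (7.81% of all windows) and the TCF motif CTTTGA (16.0%) had no match in the 9 windows. These matches describe letters in a short window and are not evidence of binding.

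**Figure D1:**
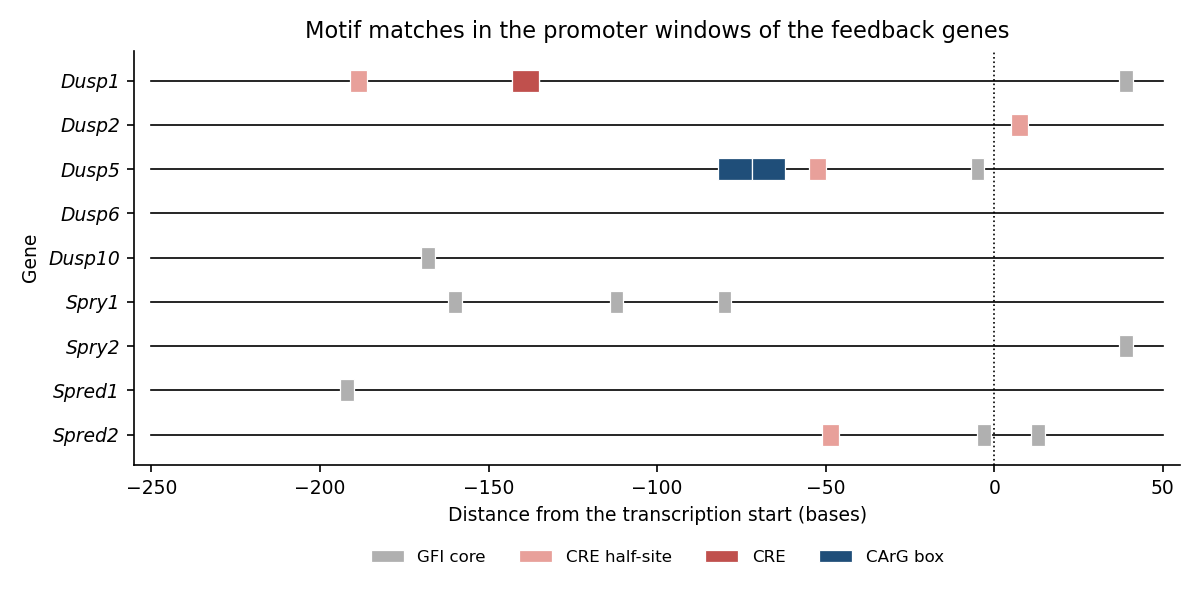
Motif matches in the promoter windows of 9 feedback genes, by distance from the transcription start in bases (dotted line at the start). Bars mark the full CRE (red), CRE half-sites (pink), CArG boxes (blue) and the AATC core (grey), and a white line separates the 2 CArG boxes of Dusp5, while Dusp6 has no match.

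The first question was at which level the feedback genes were expressed in the HSC populations. All 10 were detected in every library, with counts from 306 to 26316 in the HSC libraries and from 51 to 2288 in the CD41low/CD9low libraries. Compared per length, as CPM per kilobase of exon, Dusp1 was the highest in both HSC libraries, with 156.5 in WT and 74.4 in KO. Dusp2 was the highest in both CD41low/CD9low libraries, with 54.2 in WT and 44.1 in KO. Dusp1 encodes an early-induced nuclear phosphatase of p38, JNK and ERK, and Dusp2 a related nuclear phosphatase found mainly in blood cells. Dusp10, a phosphatase of p38 and JNK, was the lowest in all 4 libraries, at values from 1.32 to 3.25.

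In GRCm38, with RefSeq ends, Dusp1 lies at chr17:26505591-26508472 and Spry2 at chr14:105891947-105896819, both on the minus strand. The plus strand holds Dusp2 at chr2:127336159-127338377, Dusp4 at chr8:34807610-34819894, Dusp5 at chr19:53529145-53541809, Dusp6 at chr10:99263231-99267489 and Dusp10 at chr1:184034381-184075636. It also holds Spry1 at chr3:37639947-37644599, Spred1 at chr2:117121071-117182279 and Spred2 at chr11:19924442-20024026. Overlaps were taken from the GENCODE annotation, in which Dusp1 is longer than in RefSeq (chr17:26505590-26562128). There Dusp1, Dusp5, Dusp10 and Spry1 overlap annotated genes of the opposite strand. These overlaps are of whole gene spans, so shared exons are not shown. It is not stated whether the counting used strand, and reads that HTSeq found ambiguous between genes were set aside. The effect of the overlaps on the counts was not tested. Dusp1 also overlaps AC122252.4 and AC122252.1 on its own strand.

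The order of the remaining genes was partly shared. In WT HSCs it ran from Dusp1 over Dusp2, Spred1, Dusp6, Dusp4, Spry1, Dusp5, Spry2 and Spred2 to Dusp10, and of these neighbours only Dusp4 and Spry1 had overlapping 95% counting intervals. In KO HSCs Spred1 passed Dusp2, and Spry2, Spry1 and Spred2 overlapped in turn. In WT CD41low/CD9low HSCs the overlapping neighbours were Spred2 with Dusp5 and Spry2 with Spry1, and in KO they were Spred1, Dusp4 and Dusp6 in turn and Dusp5, Spry2 and Spred2 in turn. Dusp1 made up 48.5% and 41.8% of the summed per-length level of the 10 genes in WT and KO HSCs, but only 17.2% and 15.8% in the CD41low/CD9low pair. The exon length of Dusp1 includes a long annotated transcript, which lowers its per-length value.

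**Figure D2:**
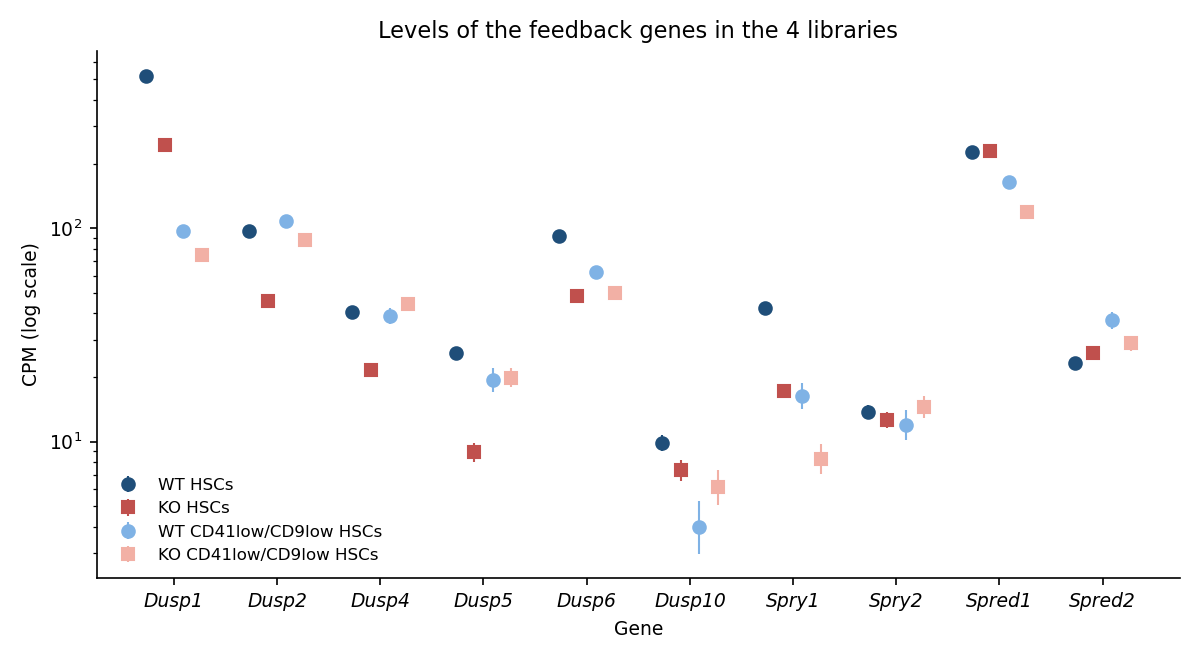
CPM (log axis) of the 10 feedback genes in the 4 libraries, 1 point per library with the exact 95% Poisson interval of its count. Dusp1 falls from 518 CPM in WT HSCs to 74.7 in KO CD41low/CD9low HSCs, whereas Dusp4 and Dusp5 are lowest in KO HSCs.

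The second question was whether the loss of Gfi1b changed these levels in HSCs. Of the 10 genes, 6 had a KO/WT ratio below 0.6, the lower cutoff of the study, and 0 were above its upper cutoff of 1.5. Of all 15910 genes with at least 10 counts in 1 of the HSC libraries, 10.3% lay below 0.6 and 14.1% above 1.5. The 6 genes were Dusp1, Dusp2, Dusp4, Dusp5, Dusp6 and Spry1, while Dusp10, Spry2 and both Spred genes stayed between the cutoffs. The median log2 KO/WT of the 10 genes was -0.90, against 0.0 over all genes. Ratios were computed from counts divided by median-of-ratios size factors, and each is given with an exact 95% interval that covers counting error only. With 1 library per genotype, the ratios have no replicate check and no test.

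Among the nuclear phosphatases, Dusp5 had the lowest ratio in HSCs. In HSCs it was measured at 25.9 CPM in WT and at 8.92 CPM in KO, which gave 0.348 (0.310 to 0.391) times the WT level. Dusp5 acts on ERK alone and holds it inactive in the nucleus, and only 4.24% of all genes had a lower ratio. Its levels in the CD41low/CD9low pair were 19.5 CPM in WT and 20.0 CPM in KO, with a ratio of 1.03 (0.873 to 1.21), so that KO HSCs were the one library with a low level.

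Dusp1 had 518 CPM in WT and 246 CPM in KO HSCs, a ratio of 0.482 (0.471 to 0.493). In the CD41low/CD9low pair, WT had 97.1 CPM and KO 74.7 CPM, a ratio of 0.771 (0.714 to 0.832). Each HSC library was above both CD41low/CD9low libraries, and within each population KO was below WT. Dusp2 had 96.7 CPM in WT and 45.7 CPM in KO HSCs, a ratio of 0.479 (0.454 to 0.505). The CD41low/CD9low libraries held 108.5 CPM in WT and 88.3 CPM in KO, a ratio of 0.815 (0.758 to 0.876). For Dusp2, as for Dusp5, KO HSCs stood below the other 3 libraries.

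Dusp4, a nuclear phosphatase of ERK and JNK, showed the same arrangement. It had 40.5 CPM in WT and 21.7 CPM in KO HSCs, a ratio of 0.541 (0.500 to 0.586). Its CD41low/CD9low levels were 38.8 CPM in WT and 44.2 CPM in KO, a ratio of 1.14 (1.02 to 1.28). Dusp6, the cytoplasmic phosphatase of ERK, had 92.2 CPM in WT and 48.4 CPM in KO HSCs, a ratio of 0.532 (0.505 to 0.561). Among CD41low/CD9low HSCs it had 62.4 CPM in WT and 49.8 CPM in KO, a ratio of 0.799 (0.727 to 0.879). Both KO libraries of Dusp6 were thus at nearly one level and below both WT libraries.

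Dusp10 had 9.89 CPM in WT and 7.34 CPM in KO HSCs, a ratio of 0.752 (0.650 to 0.869). Counts were few in the CD41low/CD9low pair, with 51 in WT and 117 in KO, or 4.01 and 6.12 CPM, a ratio of 1.53 (1.09 to 2.17). It was the only one of the 10 genes above 1.5 in either population, and its interval reached well below that cutoff.

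Of the inhibitors that act upstream of the kinases, Spry1 was below 0.6 in both populations. It had 42.3 CPM in WT and 17.3 CPM in KO HSCs, a ratio of 0.415 (0.381 to 0.452). The CD41low/CD9low libraries had 16.4 CPM in WT and 8.32 CPM in KO, a ratio of 0.507 (0.410 to 0.626). Spry2, the other Sprouty gene, had 13.8 CPM in WT and 12.6 CPM in KO HSCs and 12.0 CPM in WT and 14.5 CPM in KO of the CD41low/CD9low pair. Its ratios were 0.930 (0.829 to 1.04) and 1.21 (0.991 to 1.48). For Spry2 both intervals included 1, so no difference between genotypes was detectable at these depths.

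Spred1 was abundant and had 227 CPM in WT and 230.0 CPM in KO HSCs, a ratio of 1.03 (0.998 to 1.05). Its CD41low/CD9low levels were 166 CPM in WT and 120 CPM in KO, a ratio of 0.723 (0.681 to 0.767). Spred2 had 23.3 CPM in WT and 26.0 CPM in KO HSCs, a ratio of 1.13 (1.04 to 1.23), and 37.1 and 28.9 CPM in the CD41low/CD9low pair, a ratio of 0.780 (0.688 to 0.884). Both Spred genes were therefore lower in KO in the population in which Dusp4 and Dusp5 were not.

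The CD41low/CD9low pair gave another picture. In it, 1 of the 10 genes (Spry1) lay below 0.6 and 1 (Dusp10) above 1.5, while 12.0% and 13.4% of all 14844 genes did. These shares are near the background. The median log2 KO/WT of the 10 genes was -0.31, against 0.01 over all genes. Markers of other cell types also differed between genotypes. The 9 neutrophil and monocyte markers together fell from 1355 CPM in WT to 534 CPM in KO of the CD41low/CD9low pair, where 8 of the 9 had a ratio below 0.6, but summed to 627.5 and 671 CPM in HSCs, where 0 did. The 8 megakaryocyte markers summed to 979.5 CPM in WT and 1605 CPM in KO HSCs, and to 229 and 402 CPM in the CD41low/CD9low pair. Itgb3 alone made up 202.5 and 663 CPM of the HSC sums and 51.4 and 141 CPM of those of the CD41low/CD9low pair. In HSCs 3 of the 8 were above 1.5 (14.1% of all genes) and 2 had ratios below 1. In the CD41low/CD9low pair 5 of the 8 were above 1.5 (13.4%) and 2 had ratios below 1. The 9 erythroid markers summed to 974 and 497 CPM in HSCs and to 899 and 723 CPM in the CD41low/CD9low pair, with 7 of the 9 below 0.6 in the latter. Car2 alone made up 922 and 447 CPM of the HSC sums, and in HSCs 3 of the 9, all globin genes, were above 1.5 and 3 below 0.6. B cell and T cell markers stayed at or below 30.8 CPM in sum. The part of these markers in the ratios of the feedback genes was not tested. In bulk RNA, a change in the share of a cell type and a change in RNA per cell cannot be told apart.

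**Figure D3:**
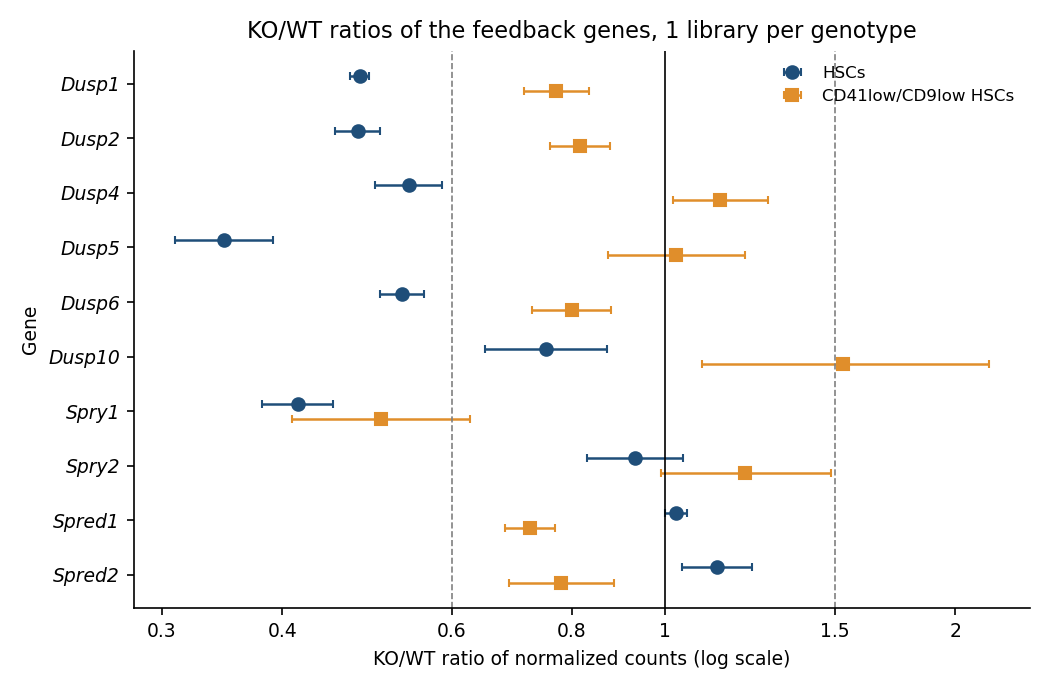
KO/WT ratio of normalized counts (log axis) of the 10 feedback genes in HSCs (blue circles) and CD41low/CD9low HSCs (orange squares), from 1 library per genotype, with exact 95% counting intervals. Dashed lines mark 0.6 and 1.5, and 6 genes lie below 0.6 in HSCs but only Spry1 in CD41low/CD9low HSCs.

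The difference between the populations in log2 KO/WT was described gene by gene, because 4 libraries leave no residual degree of freedom to test it. For Dusp1, Dusp2, Dusp4, Dusp5, Dusp6 and Dusp10 the log2 ratio was higher in CD41low/CD9low HSCs than in HSCs, by 0.59 for Dusp6 up to 1.56 for Dusp5 (95% counting interval 1.28 to 1.84). Spry2 also had a higher log2 ratio there, by 0.38 (0.05 to 0.71). For Spred1 and Spred2 it was lower by similar amounts, with differences of -0.50 (-0.60 to -0.41) and -0.54 (-0.75 to -0.32). The difference for Spry1 was 0.29 (-0.03 to 0.61), and its interval was the only one of the 10 that included 0.

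To test a genotype effect over both populations, edgeR's quasi-likelihood model was fitted to the 4 libraries with terms for genotype and population. In this design the populations stand in for replicates, and only 1 degree of freedom is left for the error. The p-values and SEs therefore rest mostly on a spread shared across genes. Whether the populations agreed for a given gene was not tested. Dusp1, Dusp2, Dusp6 and Spry1 fell in KO at an adjusted p under 0.05 and 0 of the 10 rose, while 1.19% of the 16262 genes tested were lower and 1.62% higher. The log2 KO/WT was -0.73 ± 0.15 (SE, adjusted p = 0.000245, edgeR) for Dusp1 and -1.14 ± 0.26 (adjusted p = 0.000915, edgeR) for Spry1. It was -0.69 ± 0.17 (adjusted p = 0.00258, edgeR) for Dusp2 and -0.63 ± 0.17 (adjusted p = 0.0127, edgeR) for Dusp6. In these same libraries the 4 genes were lower in KO in both populations, with counting intervals that excluded a ratio of 1. For Dusp1, Dusp2 and Dusp6 the fall was smaller in CD41low/CD9low HSCs (ratios 0.771, 0.815 and 0.799) than in HSCs (0.482, 0.479 and 0.532). Of the 4, only Spry1 had a counting interval of that difference that included 0. Dusp5 had a log2 KO/WT of -0.76 ± 0.27 (adjusted p = 0.134, edgeR) and did not pass. The calls depended on the tool and on the filter for low counts: with DESeq2 only Dusp1 passed (adjusted p = 0.0187), with at least 50 counts required in 1 library only Spry1 passed, and with edgeR's own filter, filterByExpr, 0 of the 10 passed, the lowest adjusted p being 0.0889 for Spry1. With RLE factors in edgeR, Dusp6 alone was lost (adjusted p = 0.0631). Of all genes, DESeq2 called 0.184% lower and 0.43% higher, and edgeR after filterByExpr called 0.115% lower and 0.319% higher, where 1389 of 14745 genes and 4 of the 10 had an unadjusted p under 0.05.

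The third question was how the feedback genes differed between the populations, irrespective of genotype. In the same fit Dusp1 was lower in CD41low/CD9low HSCs by a log2 difference of -2.13 ± 0.16 (SE, adjusted p = 4.97e-39, edgeR), Spry1 by -1.28 ± 0.26 (adjusted p = 1.25e-05, edgeR) and Spred1 by -0.76 ± 0.15 (adjusted p = 1.2e-05, edgeR). Dusp2 was higher, by 0.49 ± 0.16 (adjusted p = 0.0158, edgeR), and more so in KO than in WT. Of all genes tested, 13.7% were lower and 9.11% higher. The call for Dusp2 was lost with DESeq2 (adjusted p = 0.13), which called 9.18% of genes lower and 5.41% higher, with at least 50 counts required (adjusted p = 0.0518, edgeR) and after filterByExpr (adjusted p = 0.0933, edgeR). After filterByExpr, 11.6% of genes were lower and 7.41% higher. With total-count scaling the balance over all genes was even, with 1831 lower and 1861 higher, and the calls for these 4 genes stayed. The populations also differed in depth and in the number of genes listed in their tables (38293 for HSCs, 41214 for the CD41low/CD9low pair), and these cannot be told apart from the sort.

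Within genotypes, the level of Dusp1 in CD41low/CD9low HSCs was 0.179 (0.169 to 0.190) times that in HSCs in WT and 0.290 (0.275 to 0.307) times in KO. For Dusp5 the same ratio was 0.717 (0.624 to 0.822) in WT and 2.14 (1.85 to 2.48) in KO, and for Dusp4 it was 0.915 (0.828 to 1.01) and 1.95 (1.78 to 2.15). Dusp5 was thus lower in CD41low/CD9low HSCs in WT and higher in KO, and Dusp4 was higher in KO while its interval in WT included 1. For Spry1 both ratios were below 1, at 0.371 (0.321 to 0.428) in WT and 0.460 (0.385 to 0.546) in KO. Dusp2 was close to equal between the populations in WT, at 1.07 (1.01 to 1.14), and higher in CD41low/CD9low HSCs in KO, at 1.849 (1.731 to 1.975).

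Of the 7 remaining genes of the MAPK phosphatase, Sprouty and Spred families, Spry3 had 0 counts in each library. In HSCs 3 of the 6 with enough counts lay below 0.6 and 1 above 1.5, with a median log2 KO/WT of -0.40, and in CD41low/CD9low HSCs 2 of 5 lay below and 1 above, with a median of -0.49. Of all genes, 10.3% lay below and 14.1% above in HSCs, and 12.0% and 13.4% in CD41low/CD9low HSCs, with medians of 0.0 and 0.01. The 3 in HSCs included Dusp8, with only 16 counts in WT and 1 in KO. The 2 in CD41low/CD9low HSCs, Dusp9 and Spry4, had 4 and 0 counts in KO. Spry4 had 101 and 36 counts in WT and KO HSCs, a ratio of 0.440 (0.292 to 0.649). Among CD41low/CD9low HSCs it had 38 counts in WT and 0 in KO, which is at least 19.0-fold lower when a library at 0 is taken as 3 counts. Dusp9 had 138 and 64 counts in HSCs and 51 and 4 in CD41low/CD9low HSCs, ratios of 0.572 (0.419 to 0.775) and 0.0523 (0.0137 to 0.142). Dusp7, a cytoplasmic phosphatase of ERK like Dusp6, was opposite in direction to Dusp6 in HSCs, at 1.55 (1.38 to 1.74), and below 1 in CD41low/CD9low HSCs, at 0.714 (0.6 to 0.850). Spred3 and Dusp16 had 1.15 (1.05 to 1.25) and 0.997 (0.929 to 1.07) times the WT level in KO HSCs, and 1.75 (1.48 to 2.07) and 1.39 (1.21 to 1.6) times in the CD41low/CD9low pair. None of the 6 relatives tested passed edgeR's test of the genotype effect.

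Of 14 genes listed as ERK output, 6 lay below 0.6 in HSCs and 0 above 1.5, with a median log2 KO/WT of -0.64. Of all genes, 10.3% and 14.1% did so, and 8 of the 14 stayed between the cutoffs, 4 of them with ratios above 1 (Elk1, Elk3, Elk4 and Phlda1). The Elk genes were kept in the list, although their products are transcription factors on which ERK acts. Fos and Egr1, transcription factors induced within minutes by ERK, had ratios of 0.240 (0.235 to 0.244) and 0.317 (0.304 to 0.330) in HSCs. Fos had 1323 and 313 CPM in WT and KO HSCs but only 21.4 and 17.1 CPM in the CD41low/CD9low pair. Its fall between the populations was therefore much larger than that of Dusp1. Of the 13 output genes with enough counts in CD41low/CD9low HSCs, 2 lay below 0.6 and 2 above 1.5 (12.0% and 13.4% of all genes), and the median was -0.06. Egr1, Fos and Ccnd1 were called lower in KO by edgeR over both populations, with adjusted p of 0.000725, 4.44e-13 and 0.000915, and with DESeq2 only Ccnd1 was called (adjusted p = 0.049). The SE of the log2 KO/WT of Fos was 0.16 in edgeR and 0.8 in DESeq2, and that of Egr1 was 0.18 and 0.88. The 2 populations were unlike for Egr1, whose ratio in the CD41low/CD9low pair was 1.24 (0.986 to 1.56), and for Fos, at 0.804 (0.682 to 0.948), but not for Ccnd1, at 0.625 (0.593 to 0.658) in HSCs and 0.572 (0.526 to 0.622) in the CD41low/CD9low pair.

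Of 19 genes of the Ras-Raf-MEK-ERK relay, 0 lay below 0.6 and 4 above 1.5 in HSCs, where 10.3% and 14.1% of all genes did, and the median log2 KO/WT was 0.13. Mapk3, which encodes an ERK kinase, stayed between the cutoffs, at 1.07 (0.994 to 1.15) in HSCs. Braf, the kinase below Ras, had the highest ratio, 1.65 (1.58 to 1.72). Frs2, a docking protein of growth factor receptors, rose in KO over both populations (log2 0.65 ± 0.18, adjusted p = 0.0162, edgeR, and 0.246 in DESeq2), with ratios of 1.59 (1.5 to 1.68) and 1.56 (1.40 to 1.74). Frs2 was the only relay gene above 1.5 in CD41low/CD9low HSCs.

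Of 13 other negative regulators of Ras and ERK with enough counts in HSCs, 4 lay above 1.5 and 0 below 0.6, against 14.1% and 10.3% of all genes, and the median log2 KO/WT was 0.13. The remaining 9 lay between the cutoffs. In CD41low/CD9low HSCs 1 of 12 lay above 1.5 and 0 below 0.6 (13.4% and 12.0% of all genes), with a median of 0.18. Nf1, which encodes neurofibromin, the partner of the Spred proteins, had 1.99 (1.92 to 2.05) times the WT level in KO HSCs and 1.18 (1.09 to 1.27) times in the CD41low/CD9low pair. Cbl, a ubiquitin ligase for activated receptors, had ratios of 2.03 (1.95 to 2.12) and 1.36 (1.24 to 1.5). Both rose in KO in edgeR's test over both populations (adjusted p = 0.0069 and 0.000915) but not in DESeq2 (adjusted p = 0.184 and 0.0713). Long genes had higher KO/WT ratios in HSCs, with a median log2 of 0.16 for genes with at least 6369 bases of exon, which include Nf1 and Cbl, and of -0.17 for those with at most 2278. After subtraction of this trend, 6 of the 10 feedback genes were still below 0.6 in HSCs, with a median log2 of -0.79.

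In the JNK and p38 relay, 1 of 15 genes (Mapk13) lay below 0.6 in both populations, and 3 lay above 1.5 in HSCs, which is near the shares of all genes (10.3% below and 14.1% above in HSCs, 12.0% below in CD41low/CD9low HSCs). Of 10 receptors upstream of ERK, 0 lay below 0.6 and 2 above 1.5 in HSCs (14.1% of all genes), the latter being Csf2rb with 1.97 (1.85 to 2.10) and Met with 1.86 (1.57 to 2.22). Kit stayed between the cutoffs in both populations. Flt3, a receptor of early progenitors, had a ratio of 0.398 (0.369 to 0.430) in the CD41low/CD9low pair, against 1.10 (1.01 to 1.2) in HSCs. It was 1 of 2 receptors below 0.6 in that pair, with 2 others above 1.5 (12.0% and 13.4% of all genes).

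**Figure D4:**
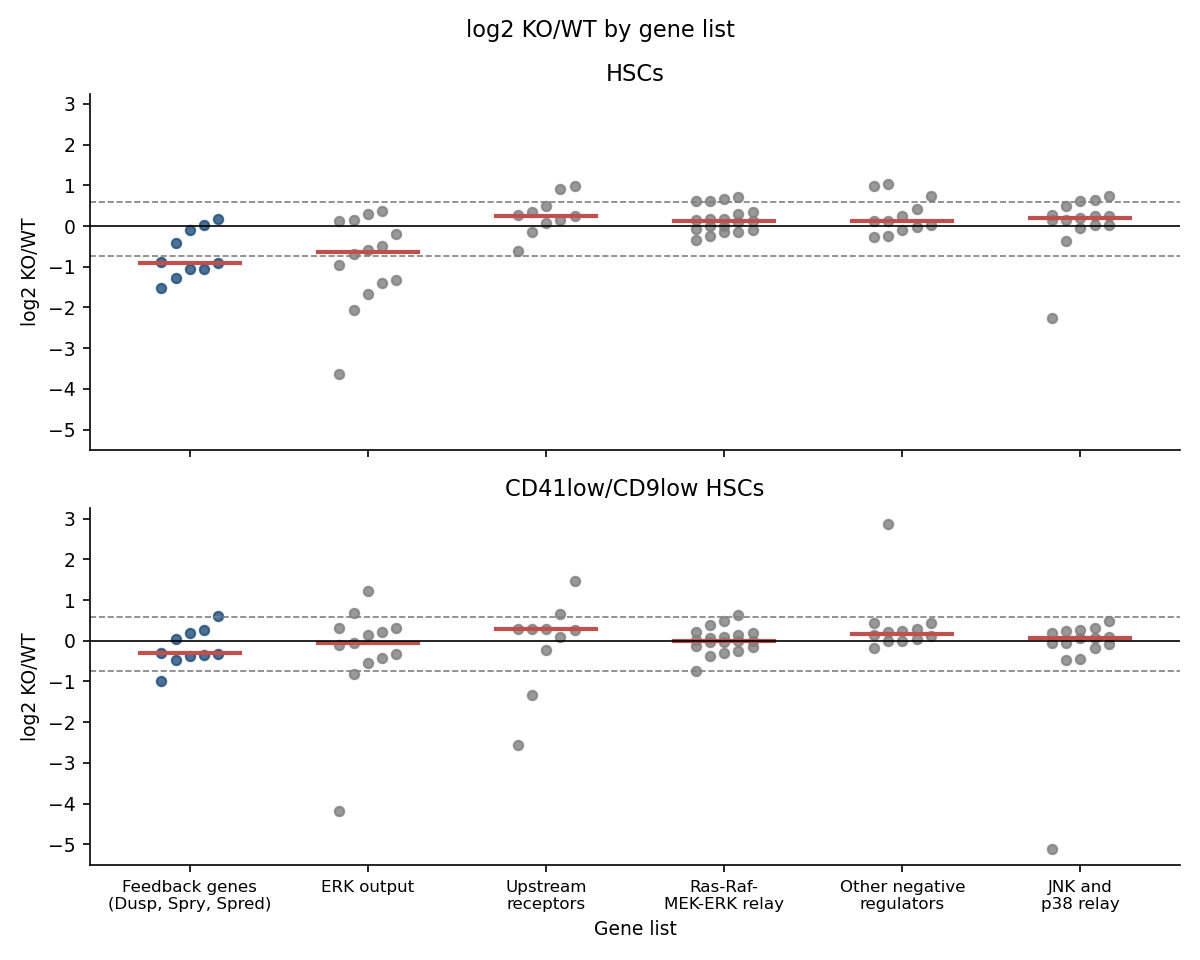
log2 KO/WT of the feedback genes (blue) and of 5 other MAPK gene lists (grey) in HSCs (top) and CD41low/CD9low HSCs (bottom), 1 point per gene with at least 10 counts in 1 library and at least 1 count in both. Red lines are medians of the points, dashed lines the cutoffs 0.6 and 1.5, and in HSCs the medians of the feedback genes (-0.90) and the ERK output genes (-0.64) lie below 0 while those of the other lists drawn lie above it (relatives of the feedback genes, median -0.40, are not drawn).

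The genes whose profile over the 4 libraries was most like that of Dusp1, the feedback gene with the highest mean level, were sought among 11054 genes with at least 50 counts in every library. By Euclidean distance between log2 CPM centred over the 4 libraries, the closest were the processed pseudogene Gm10052 (0.164), Ppp1r15a (0.227) and mt-Rnr1 (0.521). Ppp1r15a, which encodes a phosphatase subunit of the stress response, had 368 and 182 CPM in the HSC pair and 73.0 and 65.3 CPM in the CD41low/CD9low pair.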

How the data were processed

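The 10 genes, the gene lists and the tests were chosen with earlier results of these data known. The authors aligned reads to mm10 with TopHat 2.0.10 and used HTSeq to count them per Ensembl gene, and raw counts were deposited. Neither the options of HTSeq nor its annotation release is stated in the sources used here, and the kit kept the strand. The closing lines of each table, for reads on no gene, were left out. The sum of counts on genes ranged from 12732079 to 50781007 per library, and intervals cover counting error only.

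Symbols, positions and exon lengths came from GENCODE M21 (GRCm38), and promoters from RefSeq. Ratios within a population used size factors by the median-of-ratios method (KO/WT 0.810 and 1.5), and genes with at least 10 counts in 1 library were kept. Intervals of ratios were Clopper-Pearson, those of differences of log2 ratios used the normal approximation. Genotype and population effects were tested with edgeR's quasi-likelihood test (TMM, Benjamini-Hochberg), and SEs were derived from its F. On simulated counts with a coefficient of variation of 0.2, the genotype test recovered 26% of 200 genes changed 2 fold and 94% of those changed 3 fold, with 1 and 5 false calls among 15729 genes. The simulated libraries were independent and changed alike in both populations, so these rates do not cover populations that respond differently or share a pool. According to the methods, marrow was pooled before the sort, so the populations of a genotype may share a pool and not be independent. The p-values do not measure the spread between mice, and they rest mostly on a spread shared across genes. All 10 genes were named, as were the 2 highest and 2 lowest of each pathway list (at least 50 counts), list genes called by edgeR, and the 3 genes closest to the leading gene, and of these the text gives a selection, since some items are not reported here. Relatives, Itga2b, Kit and Mapk3 were named after their values were seen. Alternatives were TMM, RLE and total-count scaling, other filters, a cutoff of 1/1.5, a correction for exon length and DESeq2. The fits used edgeR 4.0.16 and DESeq2 1.42.0 in R 4.3.3, and all else Python 3.11.15 with scipy 1.17.1.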

Additional observations from a re-analysis of the deposited data

Results flagged for a closer look

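For 3 of the 10 genes the KO/WT ratio lay on opposite sides of 1 in the populations, with counting intervals that excluded 1 in both, and this difference was not tested. Dusp4 was below 1 in HSCs, at 0.541 (0.500 to 0.586), and above 1 in the CD41low/CD9low pair, at 1.14 (1.02 to 1.28). Dusp10 gave 0.752 (0.650 to 0.869) in the first and 1.53 (1.09 to 2.17) in the second. Spred2 went the other way, from 1.13 (1.04 to 1.23) down to 0.780 (0.688 to 0.884).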

How the results depend on the processing

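No paired analysis was possible because each group has 1 library, so that replicate numbers pair nothing beyond the population term already in the fit, and for the same reason no replicate could be left out. The counts of feedback genes below 0.6 and above 1.5 did not change under any alternative scaling, filter or lower cutoff in either population, except as given here. Correction for exon length moved the median log2 KO/WT of the 10 genes in HSCs from -0.90 to -0.79. With at least 50 counts required, 792 genes lay below 0.6 and 1431 above 1.5 in HSCs, and 702 and 980 in CD41low/CD9low HSCs. The genotype test depended most on the processing. It called 263 genes higher and 194 lower in edgeR, but 145 and 95 with RLE factors, 80 and 48 with at least 50 counts, 47 and 17 after filterByExpr and 70 and 30 in DESeq2. The count of feedback genes lower in KO was 1 with at least 50 counts, 0 after filterByExpr (edgeR) and 1 in DESeq2. In the population test, 0 feedback genes were higher with at least 50 counts or in DESeq2, which called 879 genes higher. Total-count scaling turned the all-gene split from 2235 lower and 1481 higher to 1831 and 1861. The log2 population difference of Spry2, not called, was -0.06 and turned to 0.02 with total counts. The causes of these changes were not tested. Counts from 51 to 117 for Dusp10 in the CD41low/CD9low pair limit its ratio most.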
